A study of Homo sapiens with 10 samples.

Results

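Narrow, strong accessible regions that were open in every library were examined in leukemia cells with and without SLFN11. Peaks of 10 lists were merged wherever they overlapped by 1 bp or more, on chromosomes 1 to 22 and X. Of the 35505 merged regions, 11603 held a peak in all 10 lists, and 468 of these (4.03%) were the narrow strong regions, 1.32% of all regions. They were selected on the list of the knockout DMSO library: the longest peak of the region there was 400 bp or less, and its best −log10 q-value was 10 or more. The 10614 regions of all 10 lists whose longest peak in that list was over 400 bp are called the wider regions here. A further 521 regions were as narrow but below the q-value limit.

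The cells were CCRF-CEM, an established human leukemia line of T lymphoblast type. The knockout groups lacked SLFN11. They received DMSO, prexasertib at 100 nM during 2, 4 or 6 h, or camptothecin at 100 nM during 4 h. The parental groups kept the gene and received the same 5 treatments. Each of the 10 groups was 1 library, so no difference has a replicate check and no p-value is given. How the knockout line was made and whether it is 1 clone are not given in the sources used here. For the parental cells at 4 h of prexasertib, the series record notes that the raw file is cut short, with no intact copy supplied.

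In ATAC-seq a transposase cuts DNA that nucleosomes leave free, and a peak marks a stretch with many cuts. A narrow peak is about as long as the gap that a single displaced nucleosome or a small cluster of bound factors leaves, whereas active promoters and enhancers often give broader peaks. SLFN11 is recruited to stressed replication forks and is known to block replication there. Prexasertib blocks CHK1, a kinase of the replication checkpoint. Camptothecin holds topoisomerase I to the DNA strand it has cut, and both drugs put forks under stress.

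Each list had between 15992 and 24438 peaks, and the smallest peak of a list was between 160 and 208 bp long. The lists give no read counts. The whole-number pileup at each summit, the count of fragments or cut sites stacked there, was worked out from the deposited fold and p-value for 99.8% to 99.9% of a list's summits. The genome-wide background pileup of a library, which moves with depth, was between 1.33 and 2.1. Summit height is the pileup over this background. All summits needed for a height were recovered in 467 of the 468 narrow strong regions, in 10611 of the wider regions and in 11599 of the regions in all lists. Intervals are at 95% and cover counting error over regions or pileups only, and regions of 1 library are not replicates.

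The limits cut through a continuous range. The regions chr4:2420345-2420895 and chr4:166296450-166297083 lay just inside the width limit, with peaks of 400 bp, and chr1:110163196-110164053 and chr3:130465264-130466037 lay just outside it, with peaks of 401 bp. Just inside the q-value limit were chr6:170580689-170581635 at 10.05 and chr5:114193516-114194268 at 10.1, and just outside it chr2:240219902-240220556 and chr14:81053541-81054309, both at 9.98. The 103 narrow strong regions with peaks of 380 to 400 bp and the 107 regions above 400 and up to 420 bp had median log2 height changes of 1.13 and 1.04 in parental cells after 6 h of prexasertib. The 84 with a −log10 q of 10 to 12 and the 135 regions with one of 8 to 10 had 0.62 and 0.68.

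Narrow strong regions were lower than wider ones in every library. Their median height in knockout cells was 19.4 with DMSO, 20.0 at 2 h of prexasertib, 18.9 at 4 h, 19.1 at 6 h and 16.1 with camptothecin. The DMSO value of the knockout belongs to the library that chose them. In parental cells the medians were 14.1 with DMSO, 15.6 at 2 h, 21.9 at 4 h, 28.2 at 6 h and 24.9 with camptothecin. The wider regions had 26.3, 28.6, 28.6, 27.6 and 22.4 in knockout cells and 19.0, 21.0, 30.2, 41.3 and 36.0 in parental cells, in the same order. In parental cells the median heights of both sets, which depend on the division by the background, were higher at each later time of prexasertib, and in knockout cells those of the narrow strong regions stayed between 18.9 and 20.0 across DMSO and prexasertib. Behind the parental DMSO median stood a pileup of 23 in narrow strong regions and of 31 in wider ones.

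**Figure D1:**
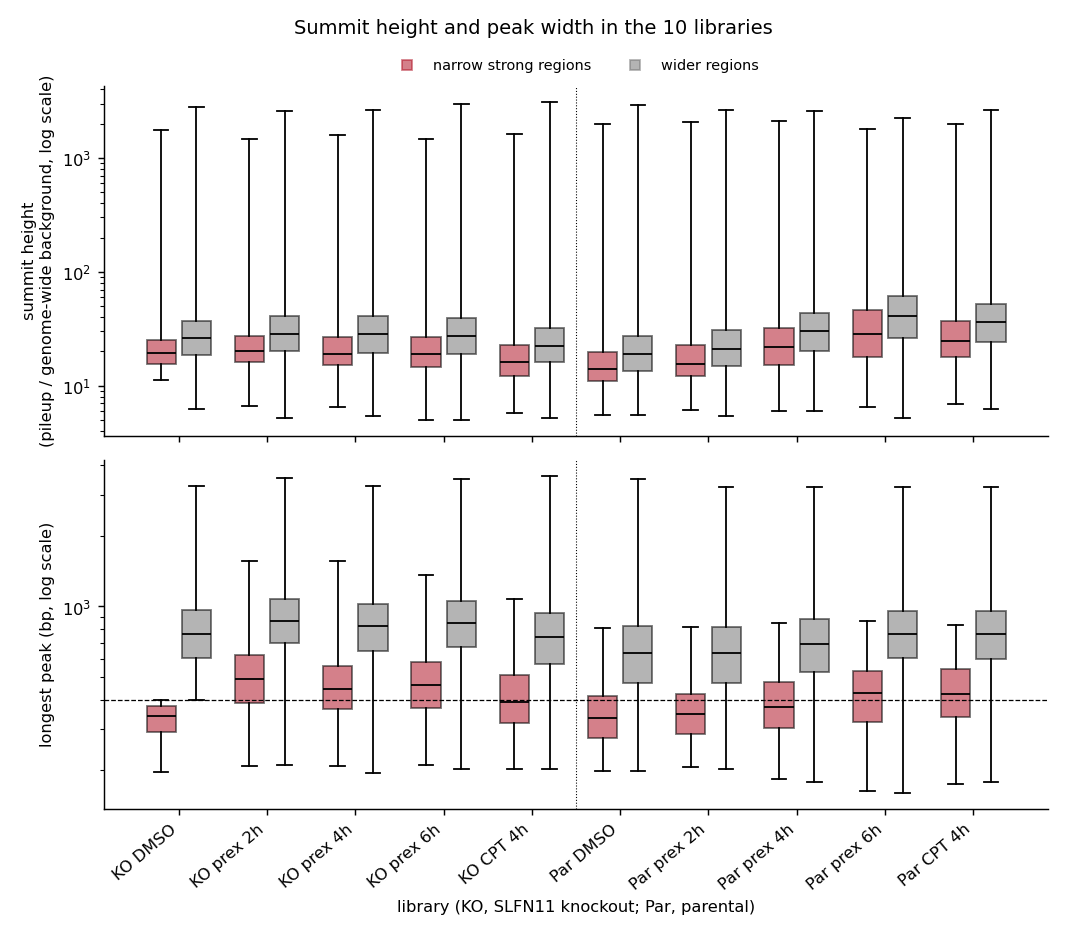
Summit height over the genome-wide background (top, log scale) and longest peak in bp (bottom, log scale) of the narrow strong and the wider regions in the 10 libraries; boxes give quartiles and median, whiskers the lowest and highest region, and the dashed line 400 bp. Median heights of the narrow strong regions lie between 14.1 and 28.2, below those of the wider regions in each library.

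Regions chosen as narrow in 1 list were often wider in the others. The median of the longest peak was 343 bp with DMSO in knockout cells, where it was limited to 400 bp, and there it was 493, 446 and 464.5 bp in prexasertib for 2, 4 and 6 h and 393 bp with camptothecin. In parental cells it was 336 bp with DMSO, 349.5, 371.5 and 428.5 bp at 2, 4 and 6 h, and 424.5 bp with camptothecin. Wider regions measured 765, 868, 824, 848 and 742 bp in knockout cells and 634, 634, 695, 765 and 761 bp in parental cells. Of the 468, 129 were at 400 bp or less in the knockout 2 h list, 173 at 4 h, 155 at 6 h and 245 with camptothecin. In parental cells 332 were at 400 bp or less with DMSO, 323 at 2 h, 265 at 4 h, 208 at 6 h and 197 with camptothecin. The number was thus smaller at each later time in parental cells, and in knockout cells it was lowest at 2 h.

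Of the 468 regions, 56 (12.0%) were at 400 bp or less in all 10 lists, and 31 (6.62%) in the selecting list alone. All 5 parental lists showed 109 (23.3%) at that width, and 40 (8.55%) were wider in each of the 5. In 459 regions (98.1%) every list held a single peak, against 91.0% of the wider regions. Constant width went with a smaller change of height. The median log2 height change in parental cells after 6 h of prexasertib was 1.10 in the 31 regions narrow in the selecting list alone, 1.28 in the 58 narrow in 4 lists, 0.66 in the 49 narrow in 7 lists and 0.25 in the 56 narrow in all 10. Among these last 56, 24 lay where the local background was high, as described further on. Since the width in the parental 6 h list enters the count of lists, this order is a description only.

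Summits of the narrow strong regions spread over fewer bases than those of the wider ones. Over the 9 lists that did not choose them, the best summits of a region spread over a median of 81.5 bp (76 to 86), against 152 bp (149 to 156) in wider regions. They fell within 50 bp of each other in 115 regions (24.6%, exact interval 20.7% to 28.7%), against 6.05% (5.6% to 6.52%) of the wider ones. Without the regions of high local background described further on, the spread was 84 bp (80 to 90) and 19.3% (15.7% to 23.3%) fell within 50 bp. Part of the difference goes with the number of summits: 293 (62.6%) had a single summit in all 9 lists, against 22.8% of the wider regions. Among regions with a single summit throughout, the spread was 67 bp in the 293 narrow strong and 88 bp in the 2424 wider ones. A narrower peak also leaves less room for the summit to move, and how much of the difference this accounts for was not tested. Within the peak the summit lay near the middle in both sets, at a median of 0.49 of the peak length in the parental DMSO list.

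**Figure D2:**
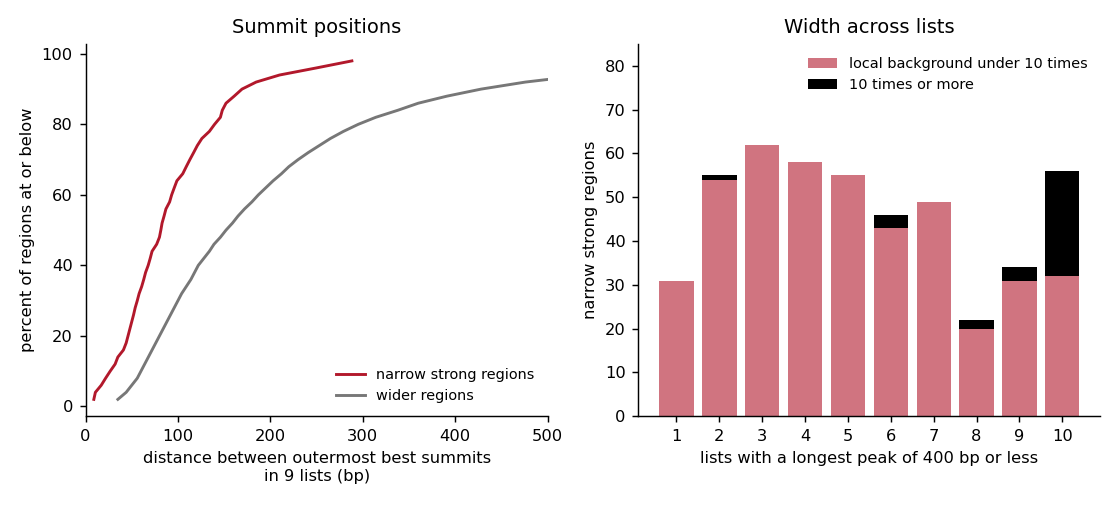
Left, the distance in bp between the outermost best summits over the 9 lists not used for selection, as the percent of regions at or below each distance (2nd to 98th percentile); right, the number of narrow strong regions by how many of the 10 lists held them at 400 bp or less, split by the local background. The median distance is 81.5 bp in narrow strong and 152 bp in wider regions, and 24 of the 56 regions narrow in all 10 lists have a high local background.

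In parental cells the narrow strong regions were higher after every treatment at the median on the scale of the genome-wide background, and from 4 h on also without that division. The parental lists set no limit on width, and on height only that a peak was called in each, at a −log10 q of 2.00 or more. The median log2 height change was 0.15 (0.09 to 0.20) at 2 h of prexasertib and 0.54 (0.48 to 0.60) at 4 h. It was 0.88 (0.76 to 1.00) at 6 h, and 0.74 (0.66 to 0.80) with camptothecin. With no division by the background the pileup medians were 0.00 (−0.05 to 0.05), 0.23, 0.78 and 0.57, so the 2 h value was set by the division. Wider regions had 0.15, 0.64, 1.06 and 0.86. The 2 h medians were equal, and at the other times the interval of the narrow strong regions lay below the wider median. The difference was −0.10 at 4 h, −0.18 at 6 h and −0.12 with camptothecin. Without the regions of high local background described further on, it was −0.054 at 4 h, −0.10 at 6 h and −0.088 with camptothecin. The intervals at 4 h, 0.50 to 0.65, and at 6 h, 0.85 to 1.10, then included the wider medians of 0.64 and 1.07, and that with camptothecin, 0.72 to 0.84, lay below the wider 0.87. When the deposited fold over the local background was compared, the narrow strong regions had 0.03 (−0.01 to 0.07) at 2 h, then 0.24, 0.48 and 0.36, and the wider ones 0.04, 0.24, 0.51 and 0.36, and on that scale the differences were −0.005 at 2 h, 0.003 at 4 h, −0.02 at 6 h and 0.006 with camptothecin. The 6 h difference also moved with the selection: it was −0.52 with a width limit of 300 bp, 0.003 with a −log10 q limit of 20, and −0.02 when the knockout camptothecin list chose the regions.

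The narrow strong regions differed from the wider ones more in spread than in median. The interquartile range of their log2 height change was 0.46 at 2 h, 0.75 at 4 h, 1.13 at 6 h and 0.85 with camptothecin, against 0.46, 0.52, 0.67 and 0.55 in wider regions. At 6 h the changes ran from −1.45 to 2.35. Lower pileups carry a larger counting error, and the share of the wider spread that this makes up was not tested.

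A height at least 2-fold above DMSO, a log2 change of 1 or more, was reached by 7 of 467 narrow strong regions (1.5%) at 2 h, where 0.81% of all regions in the 10 lists reached it. At 4 h 84 (18%) reached it, against a background of 16.6%. At 6 h 211 (45.2%, exact interval 40.6% to 49.8%) reached it, against a background of 53.7% and 55.0% of the wider regions. With camptothecin 152 (32.5%) reached it, against a background of 35.9%. The share at 6 h was below the background, and those at 4 h and with camptothecin were near it.

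Heights below DMSO were more frequent than in the background. At 6 h 66 narrow strong regions (14.1%, 11.1% to 17.6%) were lower than with DMSO, against 6.3% of all regions and 5.36% of wider ones. With camptothecin 47 (10.1%, 7.49% to 13.2%) were lower, against 4.78% of all regions and 4.18% of wider ones. Heights were higher at each step, 2 h above DMSO, 4 h above 2 h and 6 h above 4 h, in 185 narrow strong regions (39.6%, 35.1% to 44.2%) and in 53.3% of the wider ones. The highest of the 5 parental libraries was that of 6 h in 267 narrow strong regions (57.2%) and in 66.8% of the wider ones. It was the DMSO library in 17 (3.64%) and in 1.53%. All these shares rest on heights divided by the genome-wide background, and without that division the median change at 2 h was 0.00 in both sets. Lower pileups, with DMSO medians of 23 in narrow strong and 31 in wider regions, carry a larger counting error. Its part in these shares was not tested.

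**Figure D3:**
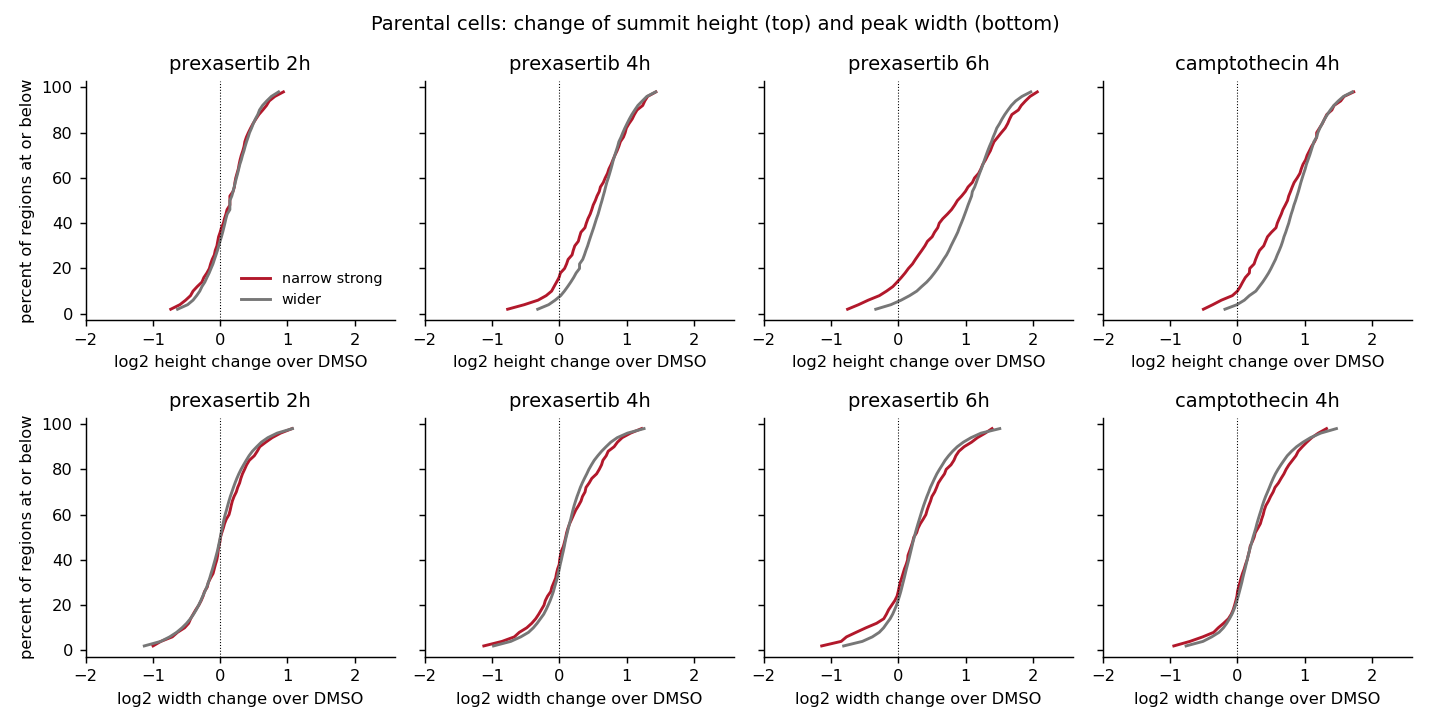
Percent of regions at or below each log2 change over DMSO in parental cells, for summit height (top) and for longest peak (bottom) at 2, 4 and 6 h of prexasertib and 4 h of camptothecin (2nd to 98th percentile); red is narrow strong, grey wider. The height curves separate in their lower part from 4 h on, with interquartile ranges of 1.13 and 0.67 at 6 h, and the width curves meet near the median and separate in their lower part at 6 h, where the 10th percentiles are −0.48 and −0.22.

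Width changes were close at the median in both sets and more spread in the narrow strong regions. The median log2 width change in parental cells was 0.01 at 2 h of prexasertib, 0.10 at 4 h, 0.23 (0.19 to 0.30) at 6 h and 0.25 (0.18 to 0.32) with camptothecin, and in wider regions it was 0.00, 0.10, 0.24 and 0.23. The interquartile range was 0.54, 0.64, 0.64 and 0.63, against 0.47, 0.46, 0.50 and 0.50 in wider regions, and the 10th percentile at 6 h was −0.48 against −0.22. The difference of medians at 6 h, −0.01, moved with the selection: it was −0.089 with a width limit of 300 bp, 0.084 with 500 bp and 0.087 when the knockout camptothecin list chose the regions. A width at least 2-fold that of DMSO was found in 12 narrow strong regions (2.57%) at 2 h against a background of 2.68%, and in 21 (4.5%) at 4 h against 4.32%. It was found in 45 (9.64%, 7.12% to 12.7%) at 6 h against 7.67%, and in 43 (9.21%, 6.74% to 12.2%) with camptothecin against 7.89%. These shares were near the background, which lay inside each exact interval. Across the 467 regions the height and width changes had a Pearson r of 0.23 at 2 h, 0.37 at 4 h, 0.54 at 6 h and 0.42 with camptothecin, against 0.19, 0.26, 0.32 and 0.28 over the 10611 wider regions. Both changes come from the same 2 libraries, and a peak caller with a fixed threshold gives a longer peak where the signal is higher, so the correlations are descriptions.

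Single regions show the range of the response. Those of largest and smallest height change were ranked on the parental 6 h change itself, so its values and intervals are descriptions only. The largest height change at 6 h was that of chr14:75530363-75531077. Its height in knockout cells was 15.1 with DMSO, 16.2, 20.0 and 14 at 2, 4 and 6 h, and 10.9 with camptothecin. In parental cells it was 9.79 with DMSO, 14.2, 29.4 and 49.9 at 2, 4 and 6 h, and 28.4 with camptothecin. The parental 6 h library stood at a log2 change of 2.35 (1.56 to 3.23, from pileups of 76 and 16), while the knockout heights stayed between 10.9 and 20.0.

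The region chr22:32149710-32150175 was similar and narrower. In knockout cells it stood at 24.5 with DMSO, 35.2, 30.3 and 33.6 at 2, 4 and 6 h, and 29.3 with camptothecin, and in parental cells at 13.5, 29.1, 46.8, 67.6 and 60.2. Its parental log2 change was 2.33 (1.65 to 3.06) at 6 h and 2.16 (1.47 to 2.91) with camptothecin, and its best summits fell within 34 bp over 9 lists. The region was higher after each parental treatment, and its peak was 260 bp with DMSO, 287, 331 and 388 bp at 2, 4 and 6 h, and 454 bp with camptothecin. The other regions among the 5 with the largest change were chr3:45147202-45147832, chr1:201924381-201925010 and chr2:101618373-101619280, with log2 changes of 2.33, 2.33 and 2.17.

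The smallest change at 6 h was that of chr11:101482971-101484174. In knockout cells its height was 24.5 with DMSO, 17.1, 22.2 and 17.1 at 2, 4 and 6 h, and 20.7 with camptothecin. Parental heights were 28.8, 28.4, 12.8, 10.5 and 17.3. The interval of the knockout log2 change at 6 h, −0.52 (−1.23 to 0.18), included 0, and the parental change was −1.45 (−2.37 to −0.61). The region was picked on that parental change, so its interval does not allow for the choice. The region chrX:4628432-4629295 was lower than DMSO in each treated library of both genotypes. It stood at 12.4, 10.8, 12.0 and 10.9 in treated knockout cells, against 19.4 with DMSO. In treated parental cells it stood at 7.45, 7.55, 8.53 and 8.99, against 17.8 with DMSO, with peaks of 405, 229, 323 and 184 bp against 551 bp. Its pileups were 10 to 31. The interval of each knockout log2 change included 0, that at 4 h running from −1.74 to 0.01. So did the parental one with camptothecin, −2.05 to 0.01, while the parental ones with prexasertib lay below 0. The rest of the 5 smallest, chr10:112174357-112174868, chr16:34021815-34022369 and chr6:119131498-119131994, had log2 changes of −1.14, −0.90 and −0.78, and the intervals of the last 2 reached past 0.

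The largest mean widening in parental cells was that of chrX:119602404-119603314. In knockout cells its longest peak was 374 bp with DMSO, 563, 566 and 524 bp at 2, 4 and 6 h and 390 bp with camptothecin. In parental cells it was 205 bp with DMSO, 465, 847 and 678 bp at 2, 4 and 6 h and 543 bp with camptothecin, the broadest being that of 4 h. The parental height of the region at 2 h was 8.12 against 8.57 with DMSO, from pileups of 12 and 14. The interval of that log2 change, −1.32 to 1.14, included 0. At chr15:42782840-42783649 the parental peak was 209 bp with DMSO, 445, 671 and 513 bp at 2, 4 and 6 h and 479 bp with camptothecin, and the height was 10.4, 13.5, 21.9, 27.6 and 27.7. The other regions of largest widening, chr14:106935770-106936518, chr3:48481256-48482097 and chr1:202310671-202311657, had mean log2 width changes of 1.24, 1.14 and 1.13. All 5 had a DMSO peak between 205 and 269 bp, below the median of 336 bp. The ranking divides by the DMSO width and so favours short DMSO peaks, and this is a description only.

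A small group of the narrow strong regions lay in places where the background itself was high. In 32 of 467 (6.85%, 4.73% to 9.54%) the local background at the parental DMSO summit was 10 times the genome-wide one or more, against 102 of 10611 wider regions (0.961%, 0.784% to 1.17%). With 1 region whose summits were not all recovered, 33 were in this group. At the median the order was the other way round, with a local background of 1.83 times the genome-wide one in narrow strong regions and 2.53 times in wider ones. The 33 regions fell into a few places on hg19. There were 6 on chromosome 4 between 49110058 and 49635025, 5 on chromosome 16 between 46401798 and 46435545, 4 on chromosome 8 between 43095883 and 43838746, and 4 on chromosome X between 61686554 and 61712745. There were 3 on chromosome 10 between 42360553 and 42528153 and 3 on chromosome 19 between 27734156 and 27738650, and the others lay singly. These 6 places lie beside centromeres, where satellite repeats are common and the assembly holds fewer repeat copies than the cells do. Settings for reads that match several places are not given in the sources used here, and the part of such reads in these heights was not tested. The local background was solved from the pileup and the deposited fold at the same summit, and the 10 libraries include no input DNA. The part of a region's own reads in its local background was not tested.

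The regions with the highest mean height over the 9 lists all belonged to this group. Height and local background come from the same summit values, so this is a description only. At chr13:110076475-110076686 the height in knockout cells was 1765 with DMSO, 1454, 1605 and 1479 in prexasertib for 2, 4 and 6 h and 1626 with camptothecin. In parental cells it was 1989 with DMSO, 2059, 2111 and 1802 at 2, 4 and 6 h and 1993 with camptothecin. The peak was 211 or 212 bp long in all 10 lists and its best summits fell within 2 bp. At chr10:42527917-42528153 the heights were 814.6, 780.5, 898.4, 935.8 and 922 in knockout cells and 779.8, 800.2, 841.3, 841 and 802.4 in parental cells, with peaks of 221 to 235 bp. Next were chr19:27738379-27738650, chr8:43095883-43096170 and chr19:27736222-27736542, with mean heights of 714.9, 655.4 and 520.7. Of these 5 regions, chr8:43095883-43096170 had the largest difference between genotypes at 6 h, with a log2 change of 0.08 in knockout and −0.78 in parental cells.

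The group with high local background had lower median height changes than the other regions in parental cells and higher ones in knockout cells. In knockout cells, whose DMSO library also chose the regions, its median log2 change was 0.31 at 6 h and 0.18 with camptothecin, against −0.09 and −0.31 in the other 435 narrow strong regions. In parental cells it was 0.24 (0.10 to 0.35) at 6 h, against 0.97 (0.85 to 1.10) in the others, and 0.10 against 0.78 with camptothecin. The median log2 width change of the group was 0.03 at 6 h in parental cells. The 102 wider regions with such a background also had small parental height changes, 0.14 at 6 h and 0.06 with camptothecin. Without these regions the parental medians at 6 h were 0.97 in narrow strong and 1.07 in wider regions. The split uses the parental DMSO library, which is also the denominator of the parental changes, and it was made after the values had been seen.

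**Figure D4:**
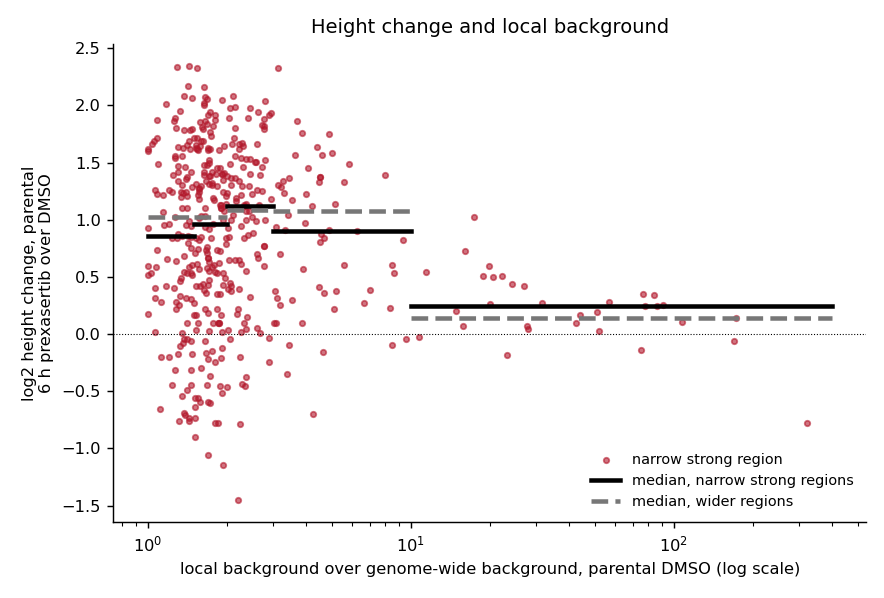
Log2 height change of parental cells after 6 h of prexasertib against the local background over the genome-wide background with DMSO (log scale), 1 point per narrow strong region, with medians of the narrow strong (black) and wider regions (grey, dashed) in 5 bins. From 10 times upward the medians are 0.24 and 0.14, and in the lower bins those of the narrow strong regions lie between 0.86 and 1.12.

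Outside that group, the strongest region was chr12:133841517-133841878. Its height was 227.6 with DMSO, 204.8, 226.9 and 207.6 at 2, 4 and 6 h and 200.04 with camptothecin in knockout cells. The parental heights were 205.1, 240.3, 267.1, 310.9 and 228.3. The change at 6 h was −0.13 (−0.34 to 0.07) in knockout and 0.60 (0.40 to 0.81) in parental cells. At chr3:73159862-73160269, the third strongest, the knockout heights were 124.2 with DMSO, 115.2, 115.1 and 108.3 at 2, 4 and 6 h and 102.9 with camptothecin, and the parental ones 83.2, 102.2, 169, 227.6 and 191.6. The 4 h, 6 h and camptothecin values of the parental cells lay above every knockout value, and the 6 h change was −0.20 (−0.48 to 0.09) in knockout and 1.45 (1.16 to 1.75) in parental cells. These regions were named after their values were seen.

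Some regions varied little in height over the 9 lists that did not choose them. The 5 with the smallest range there were chrX:155259847-155260411, chr10:42527917-42528153, chr19:27734156-27734512, chr21:14352983-14353356 and chr10:42409073-42409395, with log2 ranges of 0.25, 0.26, 0.30, 0.35 and 0.36. At chrX:155259847-155260411 the treated knockout heights were 186.2, 194.5, 186.5 and 177.05, against 142.3 in the DMSO library that chose the regions, and the log2 changes ran from 0.31 (0.06 to 0.57) to 0.45 (0.21 to 0.70). The parental heights there were 197.7, 169.02, 165.96 and 171.5 after the treatments, against 168.9 with DMSO, so the knockout DMSO library stood below the other 9. The region was picked for its small range over those 9, and its knockout changes divide by the library left out. Both are descriptions only. At chr21:14352983-14353356 the heights were 40.8, 33.8, 35.1, 40.6 and 41.4 in knockout cells and 38.6, 35.2, 32.4, 41.3 and 32.5 in parental cells, in the order DMSO, 2, 4 and 6 h of prexasertib, and camptothecin. Its peak was 302 to 374 bp long. All 5 had a local background of 3.86 times the genome-wide one or more, above the median of 1.83. A ranking by the smallest range favours high pileups, which carry a smaller counting error. Pileup and local background come from the same summit values, so this is a description only.

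Taller narrow strong regions had larger parental changes, except for the tallest. Heights here are those of the knockout DMSO library, whose list also chose the regions, and the wider regions had no q-value limit. The trend is a description only. By height in the knockout DMSO library, the median change at 6 h was 0.51 in the 49 regions under 14, 0.85 in the 147 from 14 to 18, 0.97 in the 106 from 18 to 22 and 1.25 in the 92 from 22 to 32. Wider regions of the same heights had 0.71, 0.92, 1.04 and 1.13. From 32 upward the 73 narrow strong regions had 0.51 and the 3641 wider ones 1.11, and 32 of those 73 belonged to the group with high local background. Among these 5 bins the interval of the narrow strong regions excluded the wider median in the last one only.

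The height change after prexasertib covered a wide range over chromosomes, and a wider one in narrow strong than in wider regions. Over the 20 chromosomes with 14 or more of them, the median change at 6 h in parental cells ran from 0.37 to 1.61, against 0.75 to 1.39 for the wider regions of the same chromosomes. A narrow strong median rested on 14 to 45 regions, and a wider one on 222 (chromosome 22) to 1057 (chromosome 1). The part of these smaller numbers in the larger range was not tested. It was highest on chromosome 22, at 1.61 (1.24 to 1.95, 16 regions), and on chromosome 19, at 1.55 (1.37 to 1.66, 40 regions), where wider regions had 1.32 and 1.39. It was lowest on chromosomes 10, 4, 6 and X, at 0.37, 0.38, 0.44 and 0.44, where wider regions had 0.98, 0.75, 0.94 and 0.85. The intervals on these were −0.04 to 1.10, 0.03 to 0.74, 0.04 to 1.24 and −0.03 to 1.14. Those on chromosomes 22, 19, 10, 6 and X included the wider median, and that on chromosome 4 lay below it. Chromosomes 4, 10 and X also held 7, 3 and 5 regions with a high local background, and the part of these in the low medians was not tested.

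The order of chromosomes was much the same in both sets. Across the 20 chromosomes the medians of narrow strong and wider regions had a Pearson r of 0.83 and a Spearman rho of 0.87, from the same pair of libraries. With camptothecin the chromosome medians ran from 0.32 to 1.2 in narrow strong and from 0.68 to 1.08 in wider regions. Over the local background they ran from 0.20 to 1.02 and from 0.38 to 0.63 at 6 h of prexasertib. In knockout cells at 6 h they ran from −0.28 to 0.25 and from 0.01 to 0.10. Chromosome 19 held 40 narrow strong regions (8.55%, 6.18% to 11.5%) and 6.3% of the wider ones, and chromosome 4 held 28 (5.98%, 4.01% to 8.53%) and 4.19%.

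**Figure D5:**
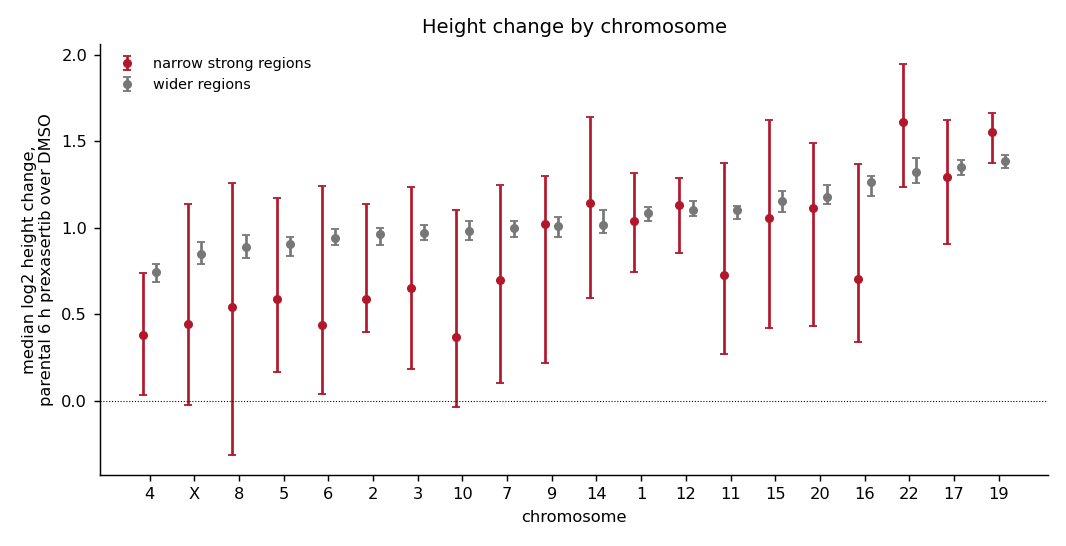
Median log2 height change of parental cells after 6 h of prexasertib over DMSO, with 95% order-statistic intervals, for narrow strong and wider regions on the 20 chromosomes with 14 or more narrow strong regions, ordered by the wider regions. Chromosomes 22 and 19 are highest among the narrow strong regions, at 1.61 and 1.55.

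Narrow strong regions lay somewhat closer to the nearest accessible region of any list. The nearest of all 35505 regions was at a median of 12.4 kb (10.8 to 13.8) from a narrow strong region and 18.8 kb (18.3 to 19.3) from a wider one. The nearest region of all 10 lists was at 38.9 kb (33.0 to 45.8) from a narrow strong region and 46.7 kb from a wider one. Without the group of high local background, the first distance was 13.4 kb (12.0 to 15.3) and the second 44.4 kb (36.3 to 51.5), an interval that includes the 46.7 kb of the wider regions. Wider regions with such a background were not taken out of that comparison. Narrow strong regions were rarely neighbours, with a median of 1235 kb from one to the next.

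In knockout cells the contrasts with DMSO use the library that chose the regions, and their values are given as a description. The median log2 height change was −0.02 at 2 h of prexasertib, 0.01 at 4 h, −0.07 at 6 h and −0.27 with camptothecin, against 0.12, 0.11, 0.06 and −0.20 in wider regions. The median width change was 0.52, 0.42, 0.45 and 0.22, against 0.14, 0.07, 0.11 and −0.04. When narrow strong regions were instead chosen in a knockout library outside the contrast, their median width changes were 0.20, 0.09, 0.12 and 0.01, and their height changes 0.07, 0.10, 0.10 and −0.15. The wider medians then were 0.15, 0.09, 0.12 and −0.03 for width and 0.13, 0.12, 0.06 and −0.20 for height. The widening in the first set of values was thus absent or small when the DMSO library had not chosen the regions.

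Pairs of treated knockout libraries leave out the library that set the limits of width and strength, although each of these lists had to hold a peak. The 4 h prexasertib library stood at a median log2 height of 0.02 (−0.05 to 0.06) over the 2 h one, and the 6 h library at −0.04 (−0.08 to 0.00) over it. Wider regions had −0.01 and −0.07. With no division by the background the narrow strong medians of these pairs were −0.17 and −0.12. In parental cells the same pairs gave 0.40 (0.34 to 0.46) and 0.77 (0.61 to 0.84) in narrow strong regions, and 0.47 and 0.89 in wider ones. Between the drugs at 4 h, prexasertib stood at 0.25 (0.22 to 0.29) over camptothecin in knockout cells and at −0.20 (−0.24 to −0.14) in parental cells. The drugs thus stood in opposite order in the knockout and the parental libraries, in narrow strong regions and in wider ones, which had 0.32 and −0.23.

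Set directly against parental cells at each treatment, knockout cells had higher narrow strong regions at 2 h and lower ones at 6 h and with camptothecin at the median, while the direction at 4 h turned with the scale. The median log2 height of knockout over parental was 0.29 (0.25 to 0.33) at 2 h of prexasertib and −0.12 (−0.17 to −0.07) at 4 h. It was −0.52 (−0.60 to −0.46) at 6 h, and −0.56 (−0.65 to −0.50) with camptothecin. With no division by the background the medians were 0.80, 0.36 (0.31 to 0.42), −0.13 (−0.22 to −0.07) and −0.29. With DMSO, where the knockout library chose the regions, it was 0.43. Wider regions had 0.39, −0.09, −0.56 and −0.64 after the treatments and 0.43 with DMSO, and among the treatments the interval of the narrow strong regions excluded the wider median at 2 h only. Over the local background the 2 h medians were 0.14 in both sets, and with camptothecin they were −0.31 (−0.36 to −0.27) in narrow strong and −0.27 in wider regions.

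At 6 h 94 narrow strong regions (20.1%, 16.6% to 24.1%) were 2-fold or more lower in knockout than in parental cells, against 13.2% of all regions. With camptothecin 98 (21.0%, 17.4% to 25.0%) were, against 18% of all regions. The share at 6 h was above the background and that with camptothecin had it inside its interval. The median at 6 h was not lower than in wider regions, at −0.52 against −0.56. These shares use heights divided by the background, and the undivided median at 6 h was −0.13. The part of the larger counting error of lower pileups in the shares was not tested. Knockout peaks were wider than parental ones by a median log2 of 0.42 at 2 h, 0.20 at 4 h and 0.10 at 6 h, and the median was −0.07 with camptothecin, against 0.38, 0.18, 0.09 and −0.05 in wider regions. Depth differed between these pairs, with a background pileup of 2.1 in the knockout and 1.48 in the parental library at 2 h, and its part in the widths was not tested. In the group with high local background the height of knockout over parental was 0.07 at 6 h and 0.05 with camptothecin. The other narrow strong regions had −0.58 and −0.63. That the group stood near 0 depends on the division by the background. Without it, its median pileup at 6 h was 352 in knockout and 241 in parental cells, and 287.5 and 240.5 with camptothecin. The undivided medians of the other narrow strong regions were −0.19 and −0.36.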

How the data were processed

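The data are 10 ATAC-seq libraries of CCRF-CEM cells, 1 per genotype and treatment, each with a deposited list of peaks in hg19 coordinates. The submitters' processing notes name MACS2 2.1.2, BWA 0.7.17, Picard 2.9.2, SAMtools 1.8, Trimmomatic 0.39 and Trim Galore 0.6.2, with no roles given. Parameters, shifting of reads for the transposase, removal of duplicates and handling of reads with several matches are not given in the sources used here. Deposited lists follow the narrowPeak layout, with a score per peak, a fold at the summit over the local background, and the −log10 p-value and −log10 q-value of each summit, and the smallest deposited −log10 q-value in each list was 2.00. These per-summit values are the authors'. Columns of samples of other series were not present.

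Lines that repeat a start and an end were taken as several summits in 1 peak. Peaks were merged by overlap of 1 bp or more. Longest peak and highest summit stand for a region in each list. The pileup was solved from the deposited fold and −log10 p as the whole number matching the latter within 0.001 or 1e-05 of its value, and the genome-wide background is the smallest background solved in a list, used as a measure of relative depth. Changes are log2 of treated over DMSO, or of knockout over parental, the opposite sign of the planned contrast. A call is a change of 1 or more on the log2 scale. Medians have order-statistic and shares exact (Clopper-Pearson) intervals at 95%, which cover counting error only. The ratio of 2 pileups has an exact binomial interval. Pileup recovery, region selection and median changes were tested on simulated data. Python 3.11.15, numpy 2.4.6, pandas 2.3.3, scipy 1.17.1 and matplotlib 3.10.9 were used.

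Named regions are the 5 with the highest mean log2 height and the 5 with the smallest range over the 9 lists not used for selection, the 5 with the largest and the 5 with the smallest parental height change at 6 h, the 5 with the largest mean parental widening, and those next to the limits. Regions named outside this rule are marked in the text. The selection and the lists were chosen with earlier results of these data known, and pileup recovery, the split by local background, the genotype contrast over the local background and the differences computed without the parental 4 h list in the rule were chosen after the data were seen. Genes, motifs, base composition and sequences at the regions were not analysed here, since no genome or annotation of the lists' build was used. Positions are 1-based.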

Additional observations from a re-analysis of the deposited data

Results flagged for a closer look

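The median log2 height change of the narrow strong regions stood on opposite sides of 0 in the knockout and the parental libraries. It was −0.066 in knockout and 0.88 in parental cells after 6 h of prexasertib, and −0.27 in knockout and 0.74 in parental cells after camptothecin. Without division by the genome-wide background the knockout median at 6 h was 0.26 and the parental one 0.78, both above 0, and after camptothecin they were −0.14 and 0.57, still on opposite sides. With 1 library per group the difference was not tested. The knockout DMSO library also chose the regions, and with regions chosen in another knockout library the knockout medians were 0.10 and −0.15.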

How the results depend on the processing

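Values are medians of narrow strong minus wider regions on the log2 scale in parental cells unless stated. The number of narrow strong regions was 128 with a width limit of 300 bp, 1226 with 500 bp, 845 with a −log10 q limit of 5 and 132 with 20, against 468. With 300 bp the height differences were −0.056 at 2 h, −0.23 at 4 h, −0.52 at 6 h and −0.31 after camptothecin (main values 0, −0.10, −0.18 and −0.12), and the width differences −0.089 at 6 h and −0.054 after camptothecin (main values −0.01 and 0.02). With 500 bp the height difference after camptothecin was −0.025 and the width differences were 0.084 at 6 h and 0.092 after camptothecin. With a −log10 q limit of 20 the 6 h height difference changed sign to 0.0032, and the width difference after camptothecin was −0.081. Choosing in the knockout camptothecin list gave −0.0195 for height and 0.087 for width at 6 h. Over the local background the height differences were 0.0032 at 4 h and 0.0056 after camptothecin, both of opposite sign, and −0.022 at 6 h, and those of knockout over parental changed sign to 0.0041 at 2 h and −0.039 after camptothecin (main values −0.10 and 0.08). In knockout cells, with regions chosen outside the contrast, the height differences were 0.037 at 6 h and 0.045 after camptothecin and the width difference −0.0031 at 6 h, all of opposite sign to the main −0.13, −0.07 and 0.34. The cause of these moves was not tested. The allowance for a difference was the mean reach of the narrow strong interval to either side of its median. Of 104 alternatives 74 kept the value within it or, for a number of regions, within 1.5 times, and 22 moved it further. In 8 a difference larger than this allowance took the opposite sign, and in 12 more so did a smaller one. The camptothecin difference of knockout over parental, 0.08, was larger than its allowance, although the narrow strong interval itself held the wider median. Applying the rule without the parental 4 h prexasertib list, whose raw file is cut short, gave 482 regions and height differences of 0 at 2 h, −0.20 at 6 h and −0.13 after camptothecin.

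Dividing by the genome-wide background shifts every change of a contrast by 1 amount: without it the median over all regions in parental cells was 0.00 at 2 h, 0.32 at 4 h, 0.95 at 6 h and 0.68 after camptothecin, against 0.15, 0.62, 1.05 and 0.85 with it, and differences between the sets were the same. In knockout cells the undivided medians of the narrow strong regions were 0.38, 0.22, 0.26 and −0.14, against −0.02, 0.01, −0.07 and −0.27 with division. No paired analysis was possible because each group is 1 library, and for the same reason no contrast was computed without one of its libraries. The planned motif window was not run. Read depth, fragment lengths and mitochondrial reads were not examined, and a median narrow strong region rested on a pileup of 23 to 43.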
